A study of Mus musculus with 12 samples.

Results

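The replication-dependent histone genes were followed in mobilized mouse haematopoietic stem and progenitor cells. They were taken as every non-control probe whose gene name in the scanner files begins with Hist1h to Hist4h, which gave 46 genes with 51 probes among 31093 names on the array. For each gene the probe with the highest mean over the 12 arrays was used. A gene was tested when that probe was well above background, by the scanner software's own flag, on all 3 arrays of at least 1 group. Of the 46 histone genes, 39 were tested and 36 were well above background on all 12 arrays, beside 23763 tested and 19478 on all 12 arrays among all names.

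The cells were LSK cells (lineage-negative, Sca-1-positive, Kit-positive), the compartment that holds the stem and progenitor cells of the blood, sorted by flow cytometry from male DBA2/J mice. The 4 groups had 3 arrays each. Marrow LSK cells came from mice injected with PBS (PBS marrow). LSK cells of peripheral blood came from mice given G-CSF, a growth factor, in 9 injections over 5 days (G-CSF blood), from mice given AMD3100, an antagonist of the chemokine receptor CXCR4, 1 hour before (AMD3100 blood), and from mice given CWHM-823, an inhibitor of the integrin VLA-4, together with tGro-b, a truncated ligand of CXCR2, for which the labels give no time (CWHM-823+tGro-b blood). Every blood group was treated and the marrow group was not, so treatment and tissue cannot be told apart in any comparison with marrow. Nothing in the labels ties the 3 arrays of a group to separate animals, so a p-value measures only the spread between these arrays.

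Most histone protein is made while DNA is copied, in S phase of the cell cycle, from clustered replication-dependent genes. Their mRNAs end in a short stem-loop in place of a poly(A) tail. The stem-loop is bound by SLBP, the mRNA is cut next to it with the help of the U7 snRNP, and it is degraded when DNA synthesis stops. NPAT, a target of cyclin E and its kinase, drives transcription of the clusters. H2A, H2B, H3 and H4 form the core of the nucleosome and H1 binds the DNA between nucleosomes. A few of these genes, Hist1h2bc and Hist2h2be among them, are also made as polyadenylated mRNA outside S phase.

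How far a probe can tell one histone gene from another differs over the set. The probes are 60 bases long, and those of 22 of the 46 genes shared a run of at least 20 bases with the probe of another histone gene or were listed in the reference for at least 2 current genes. The longest shared run was 42 bases, between Hist1h2ah and Hist2h2ac. Signal of such a probe can come from several genes. The following 4 probes of H2A genes end in a stop codon and show the problem. Capitals mark bases that differ from the Hist1h2af probe, 5 in each of the other 3.
Hist1h2af: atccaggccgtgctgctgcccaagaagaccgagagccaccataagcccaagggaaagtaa
Hist1h2ak: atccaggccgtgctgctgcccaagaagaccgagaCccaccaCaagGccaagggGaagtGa
Hist1h2an: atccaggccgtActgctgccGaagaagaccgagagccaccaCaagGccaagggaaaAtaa
Hist2h2aa2: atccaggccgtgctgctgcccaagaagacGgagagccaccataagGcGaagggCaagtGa
The scanner files place them, in mm9, at chr13:23626113-23626172, chr13:21845304-21845363, chr13:21878695-21878754 and chr13:51298057-51298116. The last position does not match the RefSeq table, which has the gene on chromosome 3. Exon annotation of mm9 was not used here.

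Other probes lie at the end of the mRNA and carry the stem-loop itself. The consensus of the histone 3' stem-loop, searched on both strands, was in 5 of the 51 histone probes and in 6 of all 39429 probes on the array (0.0152%). These 30-base stretches show it in capitals, with the loop between the 2 arms of the stem.
Hist1h3a: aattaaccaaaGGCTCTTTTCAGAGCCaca
Hist2h2bb: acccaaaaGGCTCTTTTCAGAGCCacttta
Hist1h3g: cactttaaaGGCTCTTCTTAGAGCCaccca
Hist1h3i: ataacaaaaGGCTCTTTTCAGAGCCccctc
Hist1h4m: caactaaaGGCCCTTTTCAGGGCCatccaa

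The called genes of the results below were mostly H2B genes, and the last 30 bases of their 5 probes are given for that reason.
Hist1h2bc: aatgcttttaagtgtttgtcatgtatggat
Hist1h2bg: gctgccagatacactatcaatttgtaaact
Hist2h2be: tacttacttgggattctgccatacactgaa
Hist1h2bq: ttctgtgaggtgattataacttgtctcagc
Hist1h2bp: atgatcctgaaaaagaagtatttaatacat
The whole probes lie, in mm9, at chr13:23784254-23784313, chr13:23663823-23663882, chr3:96026893-96026952, chr13:21898407-21898466 and chr13:21880994-21881053, in the same order. None of the 5 holds the stem-loop motif, and the Hist1h2bq probe was listed for 2 genes.

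Values are log2 of the background-subtracted signal minus the 75th percentile of the array, so 0 is the signal that 75% of an array's spots stay under. Levels of different probes were not compared. That percentile ran from 1084 to 2634 signal units over the 12 arrays, 70.76% to 83.41% of probes were well above background, and 0 spots were saturated. A gene was called at an adjusted p under 0.05 in limma's moderated test with 1 mean per group over the 12 arrays, with Benjamini-Hochberg adjustment over all 23763 genes. Every adjusted p below is from that test unless a block is named. Each of 3 slides held 1 array of every group, with the replicate number of the labels, and same-numbered arrays deviated together. Values blocked by slide are therefore given where they change a call, and many more genes of the whole array were called that way as well.

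All 10 markers of stem and progenitor cells looked at were detected, 9 of them on all 12 arrays and Slamf1 on 9. Of the 10 neutrophil markers, Camp, Elane, Lcn2, Ltf and Mpo were above background on all 12 arrays. Mmp8 and Retnlg were above it on 10, S100a9 on 7, Ngp on 4 and S100a8 on 2. The third marrow array stood apart. Its summed neutrophil marker signal was 52.2 times the array's 75th percentile, while marrow arrays 1 and 2 had 14.5 and 15.0 and the blood arrays ran from 14.2 to 25.5. It was also the highest array for 22 of the 36 histone genes measured on every array. The part of other cells in this was not tested. The counts and medians of histone genes against marrow, and most single genes, are given with and without this array.

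**Figure D1:**
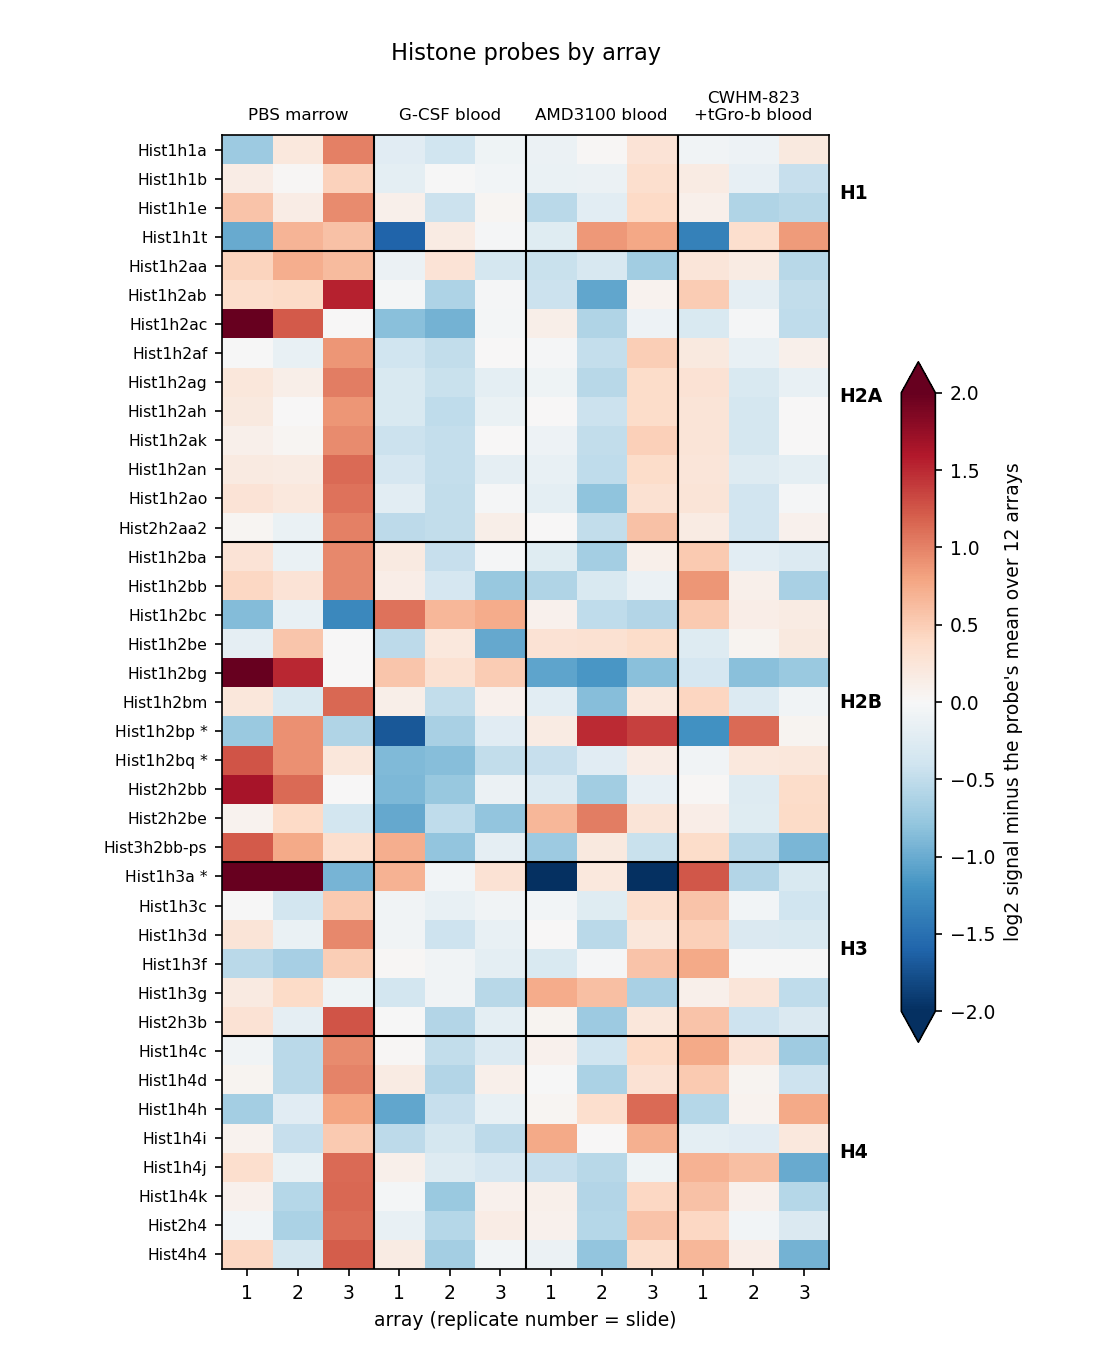
Heat map of the 39 tested histone genes (rows, by class) on the 12 arrays (columns, by group). Colour is the log2 signal, minus the array's 75th percentile, as a difference from the gene's mean over the 12 arrays, and an asterisk marks genes not well above background on all 12 arrays. The third marrow array is the highest of the 12 for 22 of 36 genes, while Hist1h2bg, Hist2h2bb, Hist1h2ac and Hist1h2bq are highest on the other 2 marrow arrays.

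Against marrow, the histone genes were on the whole slightly lower in all 3 blood groups, and few passed the test. Over the 36 genes measured on every array, the median log2 difference from PBS marrow was -0.59 in G-CSF blood, -0.39 in AMD3100 blood and -0.35 in CWHM-823+tGro-b blood. The same medians over all 19478 genes measured on every array were -0.23, 0.10 and -0.04. Estimates were below 0 for 34, 28 and 32 of the 36 histone genes, beside 62.2%, 42.8% and 54.6% of all genes. These 3 comparisons share the same marrow arrays. Without the third marrow array the medians were -0.30, -0.11 and -0.10, with 28, 21 and 22 of 36 below 0, so the shift was smaller without that array in all 3 groups. The all-gene medians without it were -0.20, 0.10 and -0.02.

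In G-CSF blood against marrow, 2 of the 39 tested histone genes were called, Hist1h2bc higher and Hist1h2bq lower. Of all genes 1.75% were called, 1.14% higher and 0.610% lower. Under the 4 other scalings the higher share of all these calls went from 65.2% to between 76.3% and 86.2%. With the slide as a block the count was 9, 1 higher and 8 lower, against 20.0% of all genes (7.69% higher and 12.3% lower), so the histone share (23.1%) was near the background. In AMD3100 blood against marrow 1 of 39 was called, Hist1h2bg lower, while 1.41% of all genes were, 0.909% lower. The blocked count there was 3, all lower, against 13.1% of all genes, 7.59% lower. In CWHM-823+tGro-b blood against marrow 0 of 39 were called by limma, while 0.375% of all genes were. At an unadjusted p under 0.05 the count in this last comparison was 8 of 39, 7 of them lower, beside 5.68% of all genes, and the lowest adjusted p was 0.129. Its blocked count was 0, against 1.09% of all genes.

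Without the third marrow array more histone genes were called, all of them lower in blood, and the calls of Hist1h2bq in G-CSF blood and Hist1h2bg in AMD3100 blood were kept. In G-CSF blood 4 were called against 1.18% of all genes: Hist1h2bq, Hist2h2bb, Hist1h2ac and Hist1h2bg. In AMD3100 blood 2 were called, Hist1h2bg and Hist2h2bb, against 0.863% of all genes. In CWHM-823+tGro-b blood Hist1h2bg was called, against 0.278% of all genes. The Hist1h2bc difference, 1.35 without that array, was then not called. Hist1h2bq, Hist2h2bb, Hist1h2ac and Hist1h2bg are lower on the third marrow array than on the other 2, so leaving it out raises their marrow means. Leaving out marrow array 1 instead gave 0 called histone genes in G-CSF blood and 0 in AMD3100 blood. Without marrow array 2, 0 were called in AMD3100 blood. The shares of all genes called without marrow array 1 or 2 are not given here, so these counts have no background beside them.

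Averaging the 3 blood groups and setting them against marrow gave 0 calls among the 39 histone genes, beside 0.757% of all genes. At an unadjusted p under 0.05 there were 13, 12 of them lower, beside 8.72% of all genes, and limma's lowest adjusted p was 0.0610, for Hist1h2bg. Blocked by slide, 4 were called, Hist1h2bc higher and Hist1h2aa, Hist1h2bg and Hist1h2bq lower, against 2.84% of all genes (1.28% higher and 1.56% lower). Without the third marrow array 4 were called, Hist1h2bq, Hist2h2bb, Hist1h2ac and Hist1h2bg, all lower, against 0.564% of all genes. Leaving out any other 1 array gave 0 calls.

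**Figure D2:**
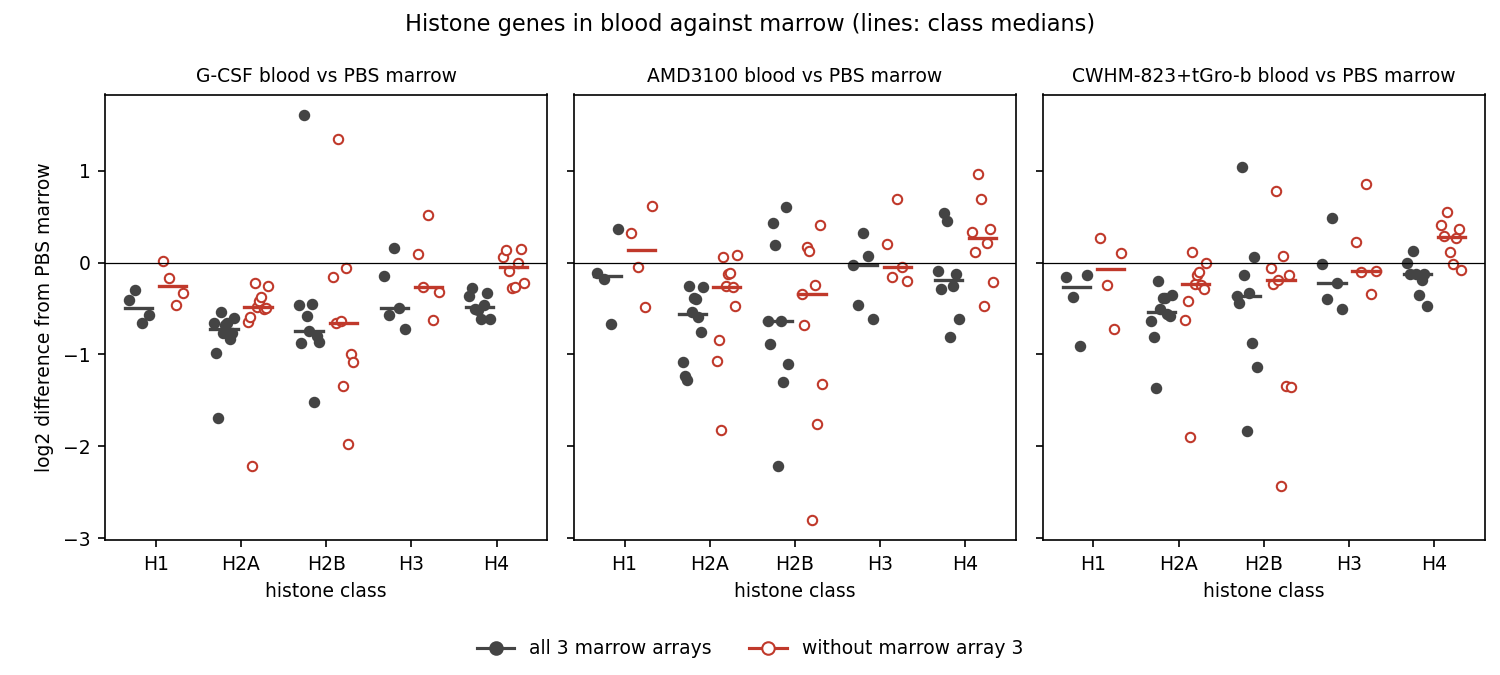
Log2 differences between each blood group and PBS marrow for the 36 histone genes well above background on all 12 arrays, by class, with all 3 marrow arrays and without the third. With all marrow arrays the medians over the 36 genes were -0.59, -0.39 and -0.35, and without the third they were -0.30, -0.11 and -0.10.

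Of the 6 called histone genes, 5 were H2B genes, a class with 11 of the 39 tested genes. Between G-CSF and AMD3100 blood 4 of these 11 were called (36.4%), near the 31.7% of all genes. Blocked by slide 45.5% of them were called there, below the 62.6% of all genes. Against marrow 2 of the 11 were called in G-CSF blood and 1 in AMD3100 blood, beside 1.75% and 1.41% of all genes. Hist1h2bg showed the largest called fall against marrow. Its log2 signal on the 3 marrow arrays was 3.86, 3.30 and 1.80. In G-CSF blood it was 2.35, 2.09 and 2.30. In AMD3100 blood it was 0.74, 0.63 and 0.96, and in CWHM-823+tGro-b blood 1.45, 0.96 and 1.05. All 3 AMD3100 arrays and all 3 CWHM-823+tGro-b arrays lay below every marrow array, while the G-CSF arrays lay within the marrow range and above the other blood arrays. The difference of AMD3100 blood from marrow was -2.21 ± 0.42 (SE) on the log2 scale, a 4.62-fold fall, with a limma adjusted p of 0.0294. It was -2.80 with an adjusted p of 0.00239 without the third marrow array, and not called without marrow array 1 (-1.77, adjusted p = 0.116), marrow array 2 (-2.05, 0.117), AMD3100 array 1 (-2.19, 0.0955) or AMD3100 array 2 (-2.14, 0.0913). In CWHM-823+tGro-b blood it was -1.83 ± 0.42, with an adjusted p of 0.129, and -2.43 with an adjusted p of 0.00304 without the third marrow array. In G-CSF blood it was -0.74 ± 0.42, with an adjusted p of 0.318, and -1.34 with an adjusted p of 0.0480 without that array.

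Hist1h2bc went the other way. It is one of the H2B genes known to be made as polyadenylated mRNA too. Its log2 signal was -1.69, -0.97 and -2.11 in marrow and 0.27, -0.15 and -0.07 in G-CSF blood. In AMD3100 blood it was -0.74, -1.33 and -1.40, and in CWHM-823+tGro-b blood -0.30, -0.68 and -0.66. The G-CSF arrays were the 3 highest of the 12, the CWHM-823+tGro-b arrays came next, and the AMD3100 arrays overlapped the marrow arrays. The rise in G-CSF blood was 1.61 ± 0.31 on the log2 scale, or 3.05-fold, with a limma adjusted p of 0.0246. It was no longer called without marrow array 1 (1.56, adjusted p = 0.0934), marrow array 3 (1.35, 0.0838), G-CSF array 1 (1.48, 0.122) or G-CSF array 3 (1.65, 0.0786). The difference of CWHM-823+tGro-b blood from marrow was 1.04 ± 0.31, with an adjusted p of 0.361, and that of AMD3100 blood 0.43 ± 0.31, with an adjusted p of 0.474.

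Hist1h2bq, a dim H2B probe above background on 11 of 12 arrays, fell in G-CSF blood. Its log2 signal was -1.76, -2.10 and -2.79 in marrow, -3.89, -3.87 and -3.51 in G-CSF blood, -3.47, -3.24 and -2.86 in AMD3100 blood and -3.09, -2.81 and -2.78 in CWHM-823+tGro-b blood. The G-CSF arrays were the 3 lowest of the 12. The difference from marrow was -1.54 ± 0.29, a 2.91-fold fall, with a limma adjusted p of 0.0207. This call depended on the scaling: the difference was -1.14 with an adjusted p of 0.173 under quantile normalization and -0.61 with an adjusted p of 0.179 after normexp background correction. It was also lost without marrow array 1 (-1.31, adjusted p = 0.0897), marrow array 2 (-1.48, 0.0970) or G-CSF array 1 (-1.47, 0.101).

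Hist2h2bb, another H2B gene, and Hist1h2ac, an H2A gene, were singled out after their values were seen, because they shared the pattern of Hist1h2bg and Hist1h2bq within marrow. Hist2h2bb stood at 0.23, -0.29 and -1.41 in marrow and between -2.32 and -1.05 on the 9 blood arrays. Hist1h2ac stood at 0.45, -0.33 and -1.56 in marrow and between -2.51 and -1.45 in blood. In both genes marrow arrays 1 and 2 were above all 9 blood arrays, and the third marrow array lay among them. The same order was seen in Hist3h2bb-ps, of the H2B class, and in Hist1h3a, described below. Hist3h2bb-ps stood at -0.76, -1.22 and -1.64 in marrow and between -2.90 and -1.26 in blood. Neither of these 2 was called against marrow, with or without the third marrow array. The differences in G-CSF blood were -1.52 ± 0.39 for Hist2h2bb (limma adjusted p = 0.0768) and -1.69 ± 0.45 for Hist1h2ac (0.0858). Blocked by slide, the adjusted p was 0.0343 and 0.0362. Without the third marrow array the differences were -1.98 and -2.22, with adjusted p of 0.0182 and 0.0181. Hist1h2ae, an H2A gene below the filter, was above background on marrow arrays 1 and 2 only, at -3.21 and -4.11, with -5.95 on the third and -6.64 to -4.83 in blood.

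**Figure D3:**
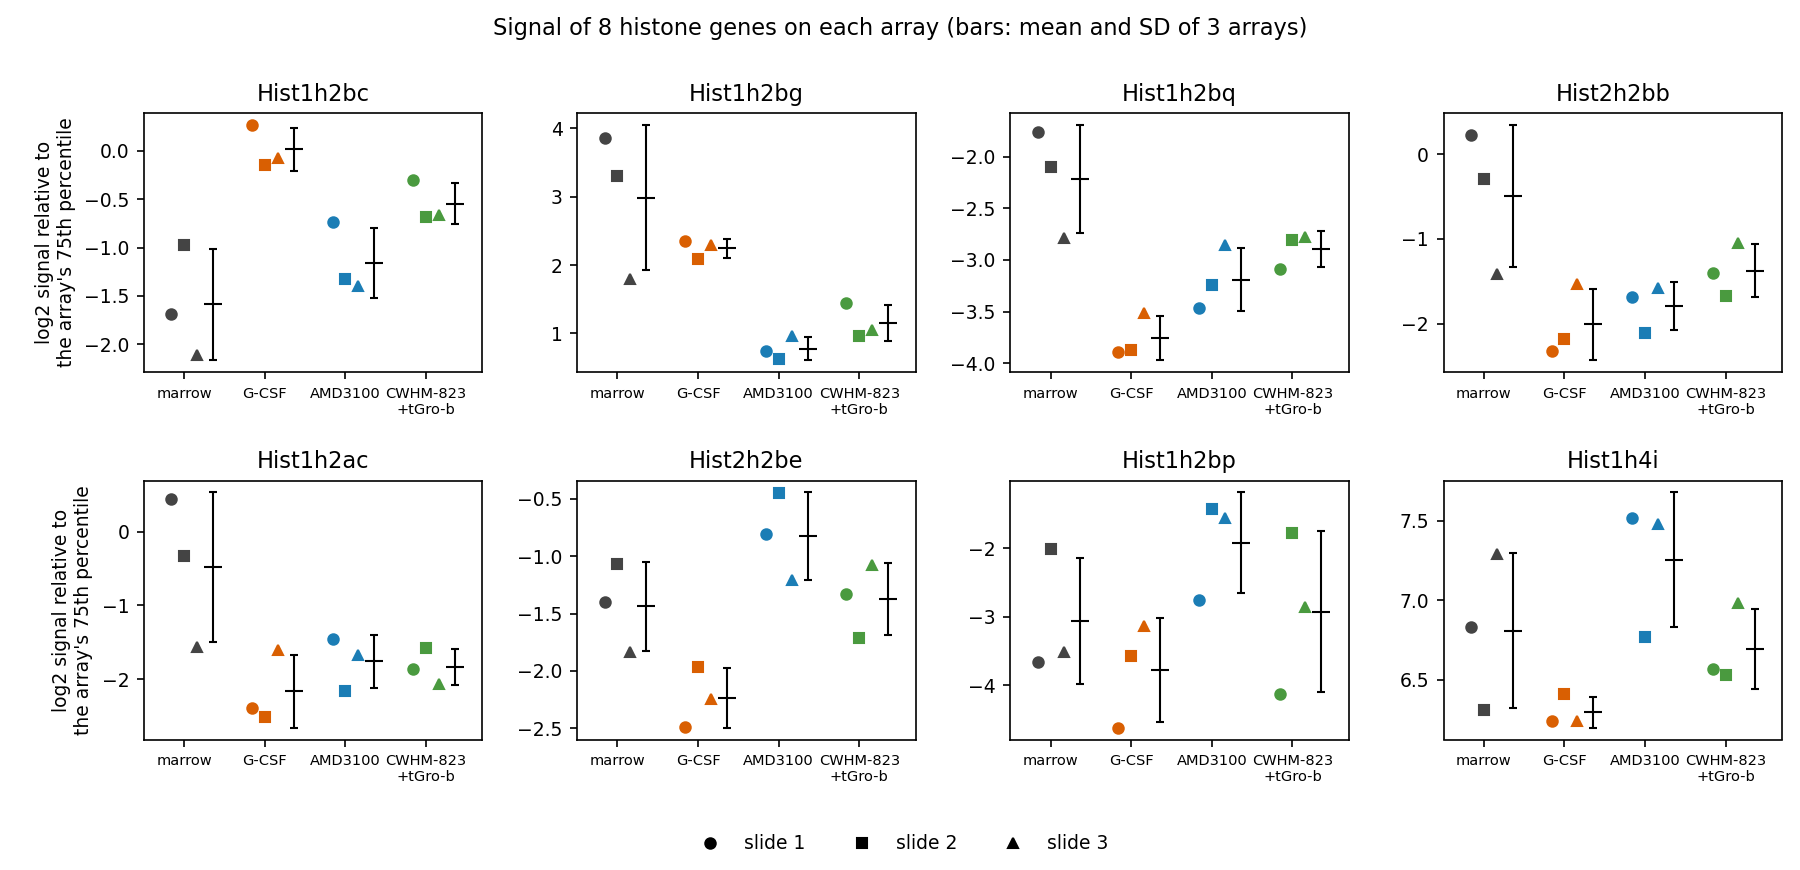
Log2 signal relative to the array's 75th percentile for 8 histone genes on each array, with the marker shape giving the slide and the bar the mean ± SD of 3 arrays. Hist1h2bg, Hist2h2bb, Hist1h2ac and Hist1h2bq are high on marrow arrays 1 and 2, Hist1h2bc is highest in G-CSF blood, and Hist2h2be, Hist1h2bp and Hist1h4i are higher in AMD3100 blood than in G-CSF blood.

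The 10 tested H2A genes, Hist1h2ac included, had differences from marrow below 0 in all 3 blood groups, and 0 of them was called by limma without a block. At an unadjusted p under 0.05 the limma counts over all 39 tested histone genes, H2A included, were 12 in G-CSF blood (11 lower) and 10 in AMD3100 blood (10 lower). Of all genes 19.9% and 18.6% had such a p. The count for CWHM-823+tGro-b blood is given above. The class medians were -0.72 in G-CSF, -0.57 in AMD3100 and -0.54 in CWHM-823+tGro-b blood, and -0.49, -0.26 and -0.23 without the third marrow array. Hist1h2aa, known as a testis variant, was steady within marrow at -0.40, -0.12 and -0.22. It was -0.96, -0.58 and -1.19 in G-CSF blood, -1.29, -1.17 and -1.54 in AMD3100 blood and -0.60, -0.68 and -1.40 in CWHM-823+tGro-b blood. Every blood array lay below every marrow array, the 1 histone gene for which the 9 blood arrays lay wholly below marrow (1.36% of all genes did). Its difference in AMD3100 blood was -1.08 ± 0.27 with a limma adjusted p of 0.0726, 0.0131 blocked by slide, and 0.124 without the third marrow array (-1.07). Hist1h2ab stood at 1.37, 1.41 and 2.56 in marrow and at 0.59, -0.02 and 1.09 in AMD3100 blood, a difference of -1.23 ± 0.41 with an adjusted p of 0.144, and 0.0493 blocked. It was -0.84 without the third marrow array, with an adjusted p of 0.290.

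Hist1h2an, one of the H2A genes whose probe sequence is given above, is an example of a shared probe. It stood at 5.00, 4.99 and 5.96 in marrow and at 4.48, 4.35 and 4.64 in G-CSF blood. All 3 marrow arrays lay above all G-CSF arrays. Its difference in G-CSF blood was -0.83 ± 0.32 with a limma adjusted p of 0.196, and 0.0457 blocked. It was -0.51 without the third marrow array, with an adjusted p of 0.392. The other H2A genes called with the block in G-CSF blood were Hist1h2aa, Hist1h2ac, Hist1h2ag, Hist1h2ah and Hist1h2ao. That made 6 of the 10 tested H2A genes, all lower, beside 20.0% of all genes (12.3% lower). The probes of Hist1h2ag, Hist1h2ah and Hist1h2ao are shared too, so these calls may not be separate. Hist1h2ak had 2 probes that differed in sign for CWHM-823+tGro-b blood, -0.39 with the brighter and 0.53 with the other, and neither was called.

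With all 3 marrow arrays, the median differences of H1, H3 and H4 genes from marrow were smaller than those of H2A and H2B genes. Single genes could differ more, as Hist1h3a below did. None of the 18 tested members was called there, beside 1.75%, 1.41% and 0.375% of all genes, so 0 of 18 was near the background. The H1 medians were -0.49, -0.14 and -0.26 in the same order of blood groups, the H3 medians -0.49, -0.03 and -0.22, and the H4 medians -0.49, -0.18 and -0.12. Without the third marrow array the H4 medians became -0.04, 0.27 and 0.28, and the H1 and H3 medians lay between -0.27 and 0.13. Hist1h1e, the H1 gene with the smallest p over the 4 groups, stood at 1.47, 1.05 and 1.84 in marrow and at 0.99, 0.30 and 0.34 in CWHM-823+tGro-b blood, a difference of -0.91 ± 0.32 with a limma adjusted p of 0.574, and -0.72 (0.884) without the third marrow array. The other H1 genes on the array were Hist1h1a, Hist1h1b, the testis variant Hist1h1t and Hist1h1d, which was above background on 0 arrays.

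Hist1h3a was the most variable H3 gene and the one with the largest single estimate. Its log2 signal was -1.22, -1.39 and -4.33 in marrow, -2.71, -3.45 and -3.11 in G-CSF blood, -5.54, -3.19 and -6.03 in AMD3100 blood and -2.16, -3.99 and -3.70 in CWHM-823+tGro-b blood. The third marrow array and 2 AMD3100 arrays were below background, and marrow and AMD3100 blood overlapped. The difference of AMD3100 blood from marrow was -2.60 ± 0.87, with a limma adjusted p of 0.148, and -3.61 with an adjusted p of 0.0560 without the third marrow array. The next H3 genes by p over the 4 groups, Hist2h3b, Hist1h3d and Hist1h3g, had differences from marrow between -0.72 and 0.07, with adjusted p of 0.319 or more. Of the H4 genes with the smallest p, Hist1h4j and Hist4h4 had differences between -0.81 and -0.35, with adjusted p of 0.347 or more.

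Between G-CSF and AMD3100 blood, both from treated mice and both from blood, few histone genes were called, and they were called in both directions. Of 39 tested histone genes 5 were called, 2 higher and 3 lower in G-CSF blood. The background was 31.7% of all genes, 12.2% higher and 19.5% lower, so the histone share (12.8%) lay below it. Blocked by slide, 8 histone genes were called, 2 higher and 6 lower, against 62.6% of all genes (22.3% higher and 40.3% lower). Of all calls without the block 38.5% were higher in G-CSF blood here, and 56.1%, 70.0%, 54.6% and 54.7% under quantile normalization, median centring, normexp correction and the authors' deposited table. The direction of a set in this comparison depends on the scaling: the median of all tested genes was -0.39 here, -0.10 under quantile normalization and -0.01 with each array centred on its median. The median of the 36 histone genes was -0.19, 0.02 and 0.19 in the same order, so its sign changed with the scaling. Under each of these it lay above the median of all tested genes, which are not limited to genes measured on every array. Over the 19478 genes measured on every array the median was -0.30 here. Without G-CSF array 1 or G-CSF array 3 only 1 histone gene was called, beside 5.97% and 9.33% of all genes. Without AMD3100 array 1 or 2 there were 2, beside 12.4% and 10.9%.

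Hist2h2be, an H2B gene also made as polyadenylated mRNA, was lower in G-CSF blood. It stood at -2.49, -1.97 and -2.25 there, at -0.81, -0.45 and -1.21 in AMD3100 blood, at -1.40, -1.07 and -1.84 in marrow and at -1.33, -1.71 and -1.08 in CWHM-823+tGro-b blood. The G-CSF arrays were the 3 lowest of the 12, so the G-CSF and AMD3100 groups did not overlap. The difference was -1.41 ± 0.29, or 2.66-fold, with a limma adjusted p of 0.0104, and it was called without any 1 of the 12 arrays. Its direction was opposite to that of Hist1h2bc, the other H2B gene with a known polyadenylated form, which was higher in G-CSF than in AMD3100 blood by 1.17 ± 0.31, or 2.25-fold (adjusted p = 0.0208). The Hist1h2bc call was lost without G-CSF array 1 (1.05, adjusted p = 0.0839), G-CSF array 3 (1.22, 0.0570) or AMD3100 array 2 (1.09, 0.0681).

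Hist1h2bg was higher in G-CSF than in AMD3100 blood by 1.47 ± 0.42, or 2.76-fold, with a limma adjusted p of 0.0261. That call was lost without G-CSF array 1 (1.41, adjusted p = 0.0866), G-CSF array 3 (1.44, 0.0737), AMD3100 array 1 (1.45, 0.0668) or AMD3100 array 2 (1.39, 0.0768). Hist1h2bp, a dim H2B gene above background on 10 of 12 arrays, stood at -4.62, -3.57 and -3.14 in G-CSF blood and at -2.76, -1.43 and -1.56 in AMD3100 blood. The groups did not overlap, though marrow (-3.66, -2.01 and -3.52) and CWHM-823+tGro-b blood (-4.13, -1.78 and -2.86) spanned both. The difference was -1.86 ± 0.64 with an adjusted p of 0.0461. It was not called under 3 of the 4 other scalings or without any 1 of 9 of the 12 arrays, the highest adjusted p being 0.168 without G-CSF array 1.

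Hist1h4i was the 1 H4 gene called between these groups, and its call rests on 1 of the 2 probes that carry its name. The probe used stood at 6.24, 6.41 and 6.24 in G-CSF blood and at 7.52, 6.77 and 7.48 in AMD3100 blood, with 6.83, 6.31 and 7.29 in marrow and 6.57, 6.53 and 6.98 in CWHM-823+tGro-b blood. The difference was -0.96 ± 0.30 with a limma adjusted p of 0.0335. The other probe with this name gave -0.23 ± 0.39 with an adjusted p of 0.641. In mm9 the scanner file places that probe next to the Hist1h4m probe (chr13:21923661-21923720). The RefSeq table has the Hist1h4i promoter next to that of Hist1h2ag, whose probe is at chr13:22134392-22134451. Which H4 gene the other probe reads was not tested. The scanner file gives the probe used no position, and within its 60 bases a stretch of 22 was covered by 15-base runs that 3 probes of genes other than histones also hold. The stretch is in capitals below, with the start of the other probe, which the file places at chr13:21923974-21924033 in mm9, beside it.
Hist1h4i, probe used: gtgtTGGGATTAAAGGCGTGCGCCACaaga
Hist1h4i, other probe: ttcatcatgtctggtcgtggcaaaggagga
The difference was also smaller under quantile normalization (-0.25, adjusted p = 0.356) and with array medians (-0.59, 0.203). Without G-CSF array 1 (-0.94, adjusted p = 0.102), G-CSF array 3 (-0.94, 0.0928), AMD3100 array 1 (-0.83, 0.101) or AMD3100 array 3 (-0.85, 0.0745) it was not called.

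Hist1h4h, another H4 gene, differed in the same direction and was called with the block only. It stood at -0.33, 0.25 and 0.56 in G-CSF blood and at 0.76, 1.05 and 1.84 in AMD3100 blood, and within slides the difference was -1.09, -0.80 and -1.28. The fitted difference was -1.06 ± 0.45 with a limma adjusted p of 0.0859, and 0.00222 blocked by slide. Hist1h2be and Hist1h1t were the other 2 genes called only with the block, at -0.76 (adjusted p = 0.0288 blocked) and -0.95 (0.00641 blocked). The Hist1h2be probe carries a polyadenylation hexamer, in capitals in this stretch of bases 30 to 59.
Hist1h2be: gtactgttcattATTAAAgcattcctgatt

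The calls between G-CSF and AMD3100 blood all fell among genes whose probe shared no long run with another histone probe. Of the 19 tested genes with a shared probe, 0 were called by limma, and 0 with the block. Of the other 20 tested genes, 5 were called and 8 with the block. The background was 31.7% of all genes, and 62.6% with the block. The share of calls lay below it for both kinds of probe, and furthest for the shared ones. Hist1h4i is among the 5, though its probe holds runs also found in probes of genes other than histones. Over the genes measured on every array, the difference between these groups ran from -0.33 to 0.21 for 17 genes with shared probes and from -1.41 to 1.47 for 19 others. A shared probe can sum several genes, which was not tested. The 2 kinds of probe also differed in base composition, with a median GC of 55% against 45%. The third marrow array was the highest of the 12 for 14 of the 17 and for 8 of the 19.

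**Figure D4:**
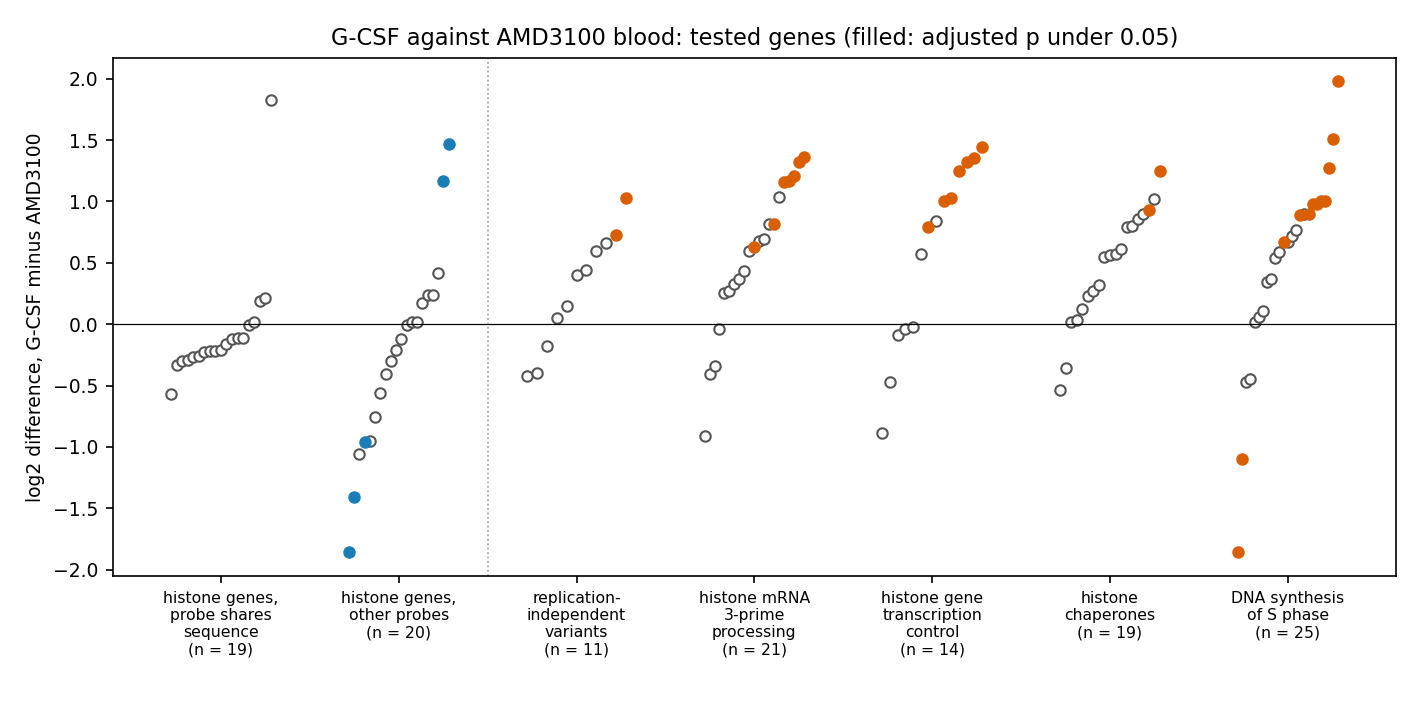
Log2 difference between G-CSF and AMD3100 blood for each tested gene: histone genes with shared probes (n = 19), other histone genes (n = 20) and the 5 lists of companion genes, with filled points for an adjusted p under 0.05. Points of genes with shared probes lie close together with 0 called, 5 of the other 20 are called in both directions, and called companion genes lie above 0 except for 2 of the S phase list.

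Neither of the other comparisons between blood groups called a histone gene. For G-CSF against CWHM-823+tGro-b blood 0 of 39 were called, beside 0.606% of all genes, with 3 at an unadjusted p under 0.05 (10.3% of all genes) and a lowest limma adjusted p of 0.330. The largest estimates there were 1.09 ± 0.42 for Hist1h2bg, and -0.86 ± 0.29 for both Hist2h2be and Hist1h2bq. For CWHM-823+tGro-b against AMD3100 blood 0 of 39 were called, beside 0.156% of all genes, with 0 at an unadjusted p under 0.05 (19.8% of all genes) and a lowest adjusted p of 0.288. Blocked by slide, 0 histone genes were called in either, against 2.21% and 16.6% of all genes. The test for any difference among the 4 groups called 3 histone genes, Hist1h2bc (adjusted p = 0.0361), Hist1h2bg (0.0282) and Hist1h2bq (0.0377), beside 6.80% of all genes, and 12 with the block, beside 51.1%.

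Tests over few arrays were compared with plain overlap. In G-CSF blood 14 of 39 histone genes lay wholly below marrow and 1 wholly above, against 14.5% and 11.2% of all genes. In AMD3100 blood 7 lay below and 0 above, against 11.9% and 14.7%. In CWHM-823+tGro-b blood 4 lay below and 1 above, against 5.47% and 4.31%. Against marrow arrays 1 and 2 alone, 18, 9 and 8 lay below and 2, 2 and 2 above in the same order, against 21.8%, 18.1% and 11.1% of all genes below and 16.8%, 21.1% and 9.83% above. Between G-CSF and AMD3100 blood 6 lay below and 2 above, against 28.5% and 19.4%.

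The promoters of the histone genes hold the known elements of these genes. A RefSeq promoter of GRCm38.p6, running from 250 bases before to 50 after the start, was found for 40 of the 46 genes. All motifs were searched on both strands. TATAAA was in 24 of 40 (60%) and in 14.2% of all 27025 promoters. CCAAT was in 34 of 40 (85%, against 37.9%), in every H1, H2A, H2B and H3 promoter but in only 2 of 8 H4 promoters. The octamer ATTTGCAT, bound by Oct-1 at H2B genes, was in 5 of 8 H2B and 6 of 13 H2A promoters, in none of H1, H3 and H4, and in 1.75% of all promoters. AAACACA, the H1 box, was in 4 of 5 H1, 2 of 13 H2A and 2 of 8 H2B promoters, in none of H3 and H4, and in 7.14% of all. A match is a description of the letters only.

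The promoters of Hist1h2bg and Hist2h2bb, both high on marrow arrays 1 and 2, are shown in full before the start, on the plus strand, at chr13:23571150-23571399 and chr3:96269450-96269699 of GRCm38.p6. Capitals mark the octamer ATTTGCAT, CCAAT boxes on either strand and TATAAA.
Hist1h2bg: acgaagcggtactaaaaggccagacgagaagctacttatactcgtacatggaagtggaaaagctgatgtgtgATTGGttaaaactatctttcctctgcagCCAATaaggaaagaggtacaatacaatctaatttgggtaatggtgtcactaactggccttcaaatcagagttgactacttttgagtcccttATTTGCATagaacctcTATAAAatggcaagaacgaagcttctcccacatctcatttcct
Hist2h2bb: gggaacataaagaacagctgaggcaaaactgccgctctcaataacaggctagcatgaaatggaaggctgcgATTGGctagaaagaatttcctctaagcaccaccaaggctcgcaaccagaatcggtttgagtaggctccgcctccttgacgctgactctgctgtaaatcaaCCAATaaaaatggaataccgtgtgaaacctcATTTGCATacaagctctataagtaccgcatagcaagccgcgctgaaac
Both hold 1 octamer and 2 CCAAT boxes. The octamer starts 59 bases before the start of Hist1h2bg and 48 before that of Hist2h2bb, and only Hist1h2bg has TATAAA, 43 bases before. In G-CSF against AMD3100 blood these genes had estimates of 1.47 and -0.22.

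Several H2A and H2B genes sit back to back and share a promoter region, and 3 such pairs with overlapping windows were tested on both sides. Hist1h2an and Hist1h2bp, with windows overlapping by 261 bases, had differences of -0.23 and -1.86 between G-CSF and AMD3100 blood, and of -0.59 and 1.15 between AMD3100 blood and marrow. Hist1h2ao and Hist1h2bq, overlapping by 267 bases, had differences of -0.77 and -1.54 between G-CSF blood and marrow. The probes of Hist1h2an, Hist1h2ao and Hist1h2bq were listed for 4, 2 and 2 genes. In mm9 the Hist1h2ao probe lies at chr13:21924926-21924985 on the minus strand, away from the Hist1h2bq probe at chr13:21898407-21898466. The RefSeq promoter of Hist1h2ao is on the plus strand. Whether these values come from the 2 sides of 1 promoter was not tested. The testis variants Hist1h2aa and Hist1h2ba, overlapping by 220 bases, had differences of -1.08 and -0.64 between AMD3100 blood and marrow. With marrow arrays 1 and 2 alone the differences from marrow in these 3 pairs were -0.27 and 0.92, -0.49 and -1.82, and -1.07 and -0.34. In a further pair, Hist1h2ae was below the filter and its partner Hist1h2bg was above it, and both had their highest signals on marrow arrays 1 and 2.

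The genes that make and handle histone mRNA were looked at in 5 lists, whose called members were nearly all higher in G-CSF than in AMD3100 blood. Of 21 tested genes of histone mRNA 3' end processing 7 were called higher and 0 lower, and of 14 that control histone gene transcription 7 and 0. Of 25 genes of S phase DNA synthesis 10 were called higher and 2 lower, of 19 histone chaperones 2 and 0, and of 11 replication-independent histone variants 2 and 0. Blocked by slide the counts were 12 and 1, 9 and 0, 15 and 3, 7 and 1, and 4 and 1, in this order. The background was 12.2% higher and 19.5% lower (22.3% and 40.3% blocked), and the median log2 difference was 0.60, 0.82, 0.67, 0.55 and 0.42 in the same order of lists, over members measured on every array, beside -0.30 over all such genes and -0.19 over the histone genes. Under the other scalings the counts of higher calls were 7 to 10, 7, 9 to 12, 3 to 7 and 3 to 4. Without G-CSF array 1 they fell to 1, 1, 1, 1 and 0, as higher calls over all genes fell to 2.60%. Without G-CSF array 3 they were 3, 3, 4, 1 and 1, without AMD3100 array 1 they were 3, 5, 2, 1 and 1, and without AMD3100 array 2 they were 2, 2, 1, 1 and 1, beside 4.76%, 5.82% and 4.89% of all genes. The chaperone count rose to 4, 5 and 4 without PBS marrow array 3, G-CSF array 2 and AMD3100 array 3.

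Several of these genes are markers of cycling cells. Tk1, the thymidine kinase of S phase, was higher in G-CSF than in AMD3100 blood by 1.98 ± 0.36 (limma adjusted p = 0.00770), and Fen1, a flap nuclease of replication, by 1.51 ± 0.37 (0.0169). Tyms, thymidylate synthase, went against them at -1.86 ± 0.47 (0.0186). Ccna2, the A-type cyclin of S phase, differed by 1.44 ± 0.34 (0.0153), and Cdkn1a, an inhibitor of the cyclin-dependent kinases, by 1.35 ± 0.31 (0.0133). Of the processing genes, Lsm10, a protein of the U7 snRNP, differed by 1.16 ± 0.28 (0.0165), Eri1, the exonuclease that trims histone mRNA, by 1.36 ± 0.34 (0.0171), and Casp8ap2, a histone locus body protein counted in both lists, by 1.32 ± 0.25 (0.00911). H2afz, a replication-independent H2A variant, differed by 1.03 ± 0.24 (0.0151), and Nap1l1, a chaperone of H2A and H2B, by 1.25 ± 0.25 (0.00993). Npat, named as the central activator, was not called, at -0.89 ± 0.42 (0.107).

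Against marrow the same lists gave few calls without the block. In AMD3100 blood the log2 difference was -2.64 for Ccna2 (limma adjusted p = 0.00444), -2.41 for Tk1 (0.0107) and -1.18 for Casp8ap2 (0.0465). With marrow arrays 1 and 2 alone these were -2.61 (0.0197), -2.08 (0.0288) and -1.19, and Casp8ap2 was then not called (0.0871). In G-CSF blood Cdkn1a was higher by 1.71 ± 0.31 (0.0150), and by 1.79 (0.0409) without that array. In CWHM-823+tGro-b blood 0 genes of the 5 lists were called by limma, while blocked by slide Cdkn1a was, at 0.96 (0.0366 blocked). The blocked counts in AMD3100 blood were 1 higher and 6 lower in the S phase list, with Rrm1, a ribonucleotide reductase subunit, at -1.03 (0.0236 blocked) and Fen1 at -1.36 (0.0301 blocked). They were 1 higher and 3 lower for chaperones, 0 and 3 for transcription control, 0 and 2 for variants and 0 and 1 for processing, against 13.1% of all genes. In G-CSF blood they were 3 higher and 0 lower for processing, 1 and 1 for transcription control, 1 and 1 for chaperones, 0 and 2 for S phase and 0 and 0 for variants, against 20.0% of all genes. The list medians in AMD3100 blood were -0.21 for processing, -0.35 for transcription control, -0.47 for S phase, -0.32 for chaperones and -0.47 for variants, beside -0.39 for the histone genes and 0.10 for all genes. With marrow arrays 1 and 2 alone the list medians were -0.28, -0.34, -0.36, -0.23 and -0.56 in the same order. The histone median was then -0.11, nearer 0 than each list, beside 0.10 for all genes.

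Markers of other cells also differed between these groups. Summed B cell marker signal was 7.55 to 8.22 times the array's 75th percentile in AMD3100 blood and 4.60 to 4.79 in G-CSF blood, over 7 markers. Of the 6 tested erythroid markers, Hba-a1, an alpha globin gene, was higher in G-CSF than in AMD3100 blood by 2.68 ± 0.34 (limma adjusted p = 0.00247). The other 5 were not called without the block, and blocked by slide Klf1 (0.0414) and Slc4a1 (0.00304) were, with differences of -1.36 for Klf1, -1.17 for Car1, -1.09 for Rhag, -0.93 for Slc4a1 and -0.29 for Epor. Summed T and NK cell marker signal was 10.7 to 15.2 in AMD3100 blood and from 6.74 up in G-CSF blood, and these ranges overlapped. In bulk RNA, fewer cells of a type and less RNA per cell cannot be told apart, and the part of these cells in the histone differences was not tested.

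The remaining 7 histone genes were not tested. Hist1h1d, Hist1h4m and Hist2h2ab were above background on 0 of 12 arrays. Hist1h3i, with a stem-loop probe, was above background on 4 arrays, Hist2h3c2 on 6, and Hist1h2ae on the 2 marrow arrays given above. Hist2h2ac was bright, at 4.59 to 6.10, but was set aside for an outlier spot on 1 G-CSF array. The linker gene Hist1h1c, which also has a polyadenylated form, was not analysed here.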

How the data were processed

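RNA of sorted LSK cells was amplified with the WTA2 kit, labelled with Cy5 and hybridised to 1-colour Agilent arrays, per the labels' protocols. The deposited scanner files, made with Agilent Feature Extraction 11.5.1.1 per the submitters' processing notes, hold intensity per spot. The main column is background-subtracted signal, per the file headers, and 0 of 12 arrays held a saturated spot. Log2 of the authors' deposited value table of 30354 probes correlated with log2 of that signal at r of 0.998 to 1.00. The table was therefore taken as unlogged intensity, and its log2 was used. How the authors scaled it is not given in the sources used here.

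Spots flagged as outliers were dropped (139 genes), spots of a probe were averaged, and from each log2 value the 75th percentile of its array, over 43020 non-control spots (39429 probes), was subtracted. limma 3.58.1 in R 4.3.3 fitted 1 mean per group, with 8 residual and 3.80 prior degrees of freedom, and was tested on simulated data. The members and lists were chosen with earlier results of these data known. The text names called genes, the 4 with the smallest F-test p in each class, up to 4 called genes a list, and any others as said there. Arrays of 1 slide share a replicate number in the labels. The 18 same-numbered pairs deviated together (r of 0.260 to 0.616) and the 36 others did not (median -0.241), so the numbers pair the samples. Alternatives were the slide as a block, quantile, median and normexp scaling, the authors' table, other filters, probes and priors, only the groups compared, and leaving out each array.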

Additional observations from a re-analysis of the deposited data

Results flagged for a closer look

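For 5 histone genes the difference from PBS marrow was not the same in G-CSF and AMD3100 blood, by limma's test of that difference, which is the comparison of the 2 blood groups because they share the marrow arrays. The test gave 1.17 for Hist1h2bc, 1.47 for Hist1h2bg, -1.86 for Hist1h2bp, -0.96 for Hist1h4i and -1.41 for Hist2h2be on the log2 scale, G-CSF minus AMD3100, with adjusted p of 0.0208, 0.0261, 0.0461, 0.0335 and 0.0104. All 5 genes had groups that did not overlap. The same held for 28.5% of all tested genes in the lower direction and 19.4% in the higher. The 5 were picked by their p on the same arrays, so the lack of overlap is not a separate test. Of all genes tested, 31.7% were called in the same comparison, so such a difference was common on these arrays. The Hist1h2bp call was lost under quantile normalization, median centring and the authors' table. The Hist1h4i call was lost under these and under normexp correction, and its other probe gave -0.23 (limma adjusted p = 0.641).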

How the results depend on the processing

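The replicate numbers pair the arrays of a slide, and with the replicate block the counts of called histone genes were 9 in G-CSF blood against marrow (2 without the block), 3 in AMD3100 blood against marrow (1 without), 8 between G-CSF and AMD3100 blood (5 without), 4 for the mean of the blood groups (0 without) and 12 for any difference (3 without); it changed no other count. Under quantile normalization, median centring, normexp correction and the authors' table G-CSF against marrow gave 1 and AMD3100 against marrow 2. G-CSF against marrow also gave 1 with probes above background on all 12 arrays or an intensity trend, and 0 with only the groups compared. AMD3100 against marrow gave 0 with no filter on dim probes or only the groups compared. CWHM-823+tGro-b against marrow gave 1 with normexp or the trend, and the blood mean gave 1 with quantile, normexp, all 12 arrays or the trend. G-CSF against AMD3100 gave 3 with the authors' table, and the test for any difference 1 with no filter. Leaving out 1 array gave 0 to 4 (G-CSF against marrow), 0 to 2 (AMD3100), 0 to 1 (CWHM-823+tGro-b), 0 to 4 (blood mean), 1 to 5 (G-CSF against AMD3100) and 0 to 4 (any difference), and the medians against marrow ran from -0.78 to -0.30, -0.65 to -0.11 and -0.57 to -0.10. The cause was not tested. For most of these settings the share of all genes called is not given here, so such counts have no background beside them. Between G-CSF and AMD3100 blood that share also changed when an array was left out, as given above. Calls of Hist1h2bc, Hist1h2bg and Hist2h2be between G-CSF and AMD3100 blood held under all 10 alternatives that left out no array; no called gene reversed. With 3 arrays a group the precision is limited, and 10 of 46 histone genes were not above background, or had no usable spot, on every array.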
